A study of Mus musculus with 9 samples.

Results

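Integrins are the receptors that tie a cell to the matrix around it, and laminins are among the main proteins they bind in the basement membrane, the thin sheet that underlies every epithelium. The probes considered here carried the symbol of an integrin alpha or beta chain, a laminin chain, a nidogen, perlecan (*Hspg2*), agrin (*Agrn*) or fibronectin, and the rule used names only and no measured value. It took 56 of the 25697 probes on the array, or 39 of 18120 symbols. They comprised 23 probes for 14 integrin alpha chains, 14 probes for 9 integrin beta chains, 11 probes for 8 laminin chains and 4 probes for the nidogens and heparan sulfate proteoglycans. A further 4 probes had symbols that start like an integrin's but name other proteins. No probe carried the symbol of fibronectin, so that major integrin ligand was not analysed here.

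The array data came from CD-1 mouse embryos at E10.5, mid-gestation, with no transgene or treatment in any group. At this stage the otic vesicle (OV) is a closed epithelial ball next to the hindbrain, from which the inner ear is built. There were 3 arrays each of OV, of periotic tissue, which is the mesenchyme and dorsal neural tissue next to the vesicle, and of embryo-minus-otic, the embryo with the otic region cut away. Each array held RNA pooled from many dissected pieces, so the test measured the spread between pools and not between single embryos. The study dissected 3 separate litters into these tissues, but the sample labels do not name the litter of an array.

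Each integrin is a pair of 1 alpha and 1 beta chain, and the pairing decides what the receptor binds. The alpha chains 3, 6 and 7 form laminin receptors, while alpha 5 and alpha V form receptors for fibronectin and vitronectin, and alpha 1, 2 and 11 bind collagen. Laminins are trimers of 1 alpha, 1 beta and 1 gamma chain. They form a network on the cell surface that nidogens and heparan sulfate proteoglycans link to a second network of type IV collagen. In the inner ear, integrin and laminin genes are known to act in shaping the vesicle and its sensory and neural parts.

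Signals are given as log2 of the quantile-normalized intensity. Detection p-values compare each signal with negative control probes, and above background here means a detection p under 0.01. Levels of different probes were not compared, because probes differ in how well they bind. Differences were tested with limma over all probes, adjusted by the method of Benjamini and Hochberg to a *q*-value, and called at *q* under 0.05. Array signal stands for RNA in the whole piece of tissue, so fewer cells of a type and less RNA per cell cannot be told apart.

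The arrays of a group were alike, with Pearson correlations of 0.989 to 0.994 within groups and 0.966 to 0.984 between them. From 11283 to 12160 probes were above background on each array. The otic marker list (12 probes of 8 genes, among them *Oc90* and *Pax2*) had 10 probes called higher in OV than in either other group, and its summed intensity was 7500 to 8200 in OV, 1050 to 1190 in periotic tissue and 1240 to 1320 in embryo-minus-otic. The arrays labelled OV thus had the higher signal of these markers. Several of them, such as *Oc90*, *Lmx1a* and *Gata3*, were ranked highest for OV by the study on these same arrays. The counts are therefore not an independent check of the tissue.

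Most probes of the family were too dim to measure. Of the 56 probes, 21 (37.5%) for 19 symbols passed on every array of 1 or more groups, against 46.1% of all probes. By group, 16 of the 56 passed in OV, 19 in periotic tissue and 19 in embryo-minus-otic. The other 35 probes, of which 27 passed on no array, are described after the measured members.

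**Figure D1:**
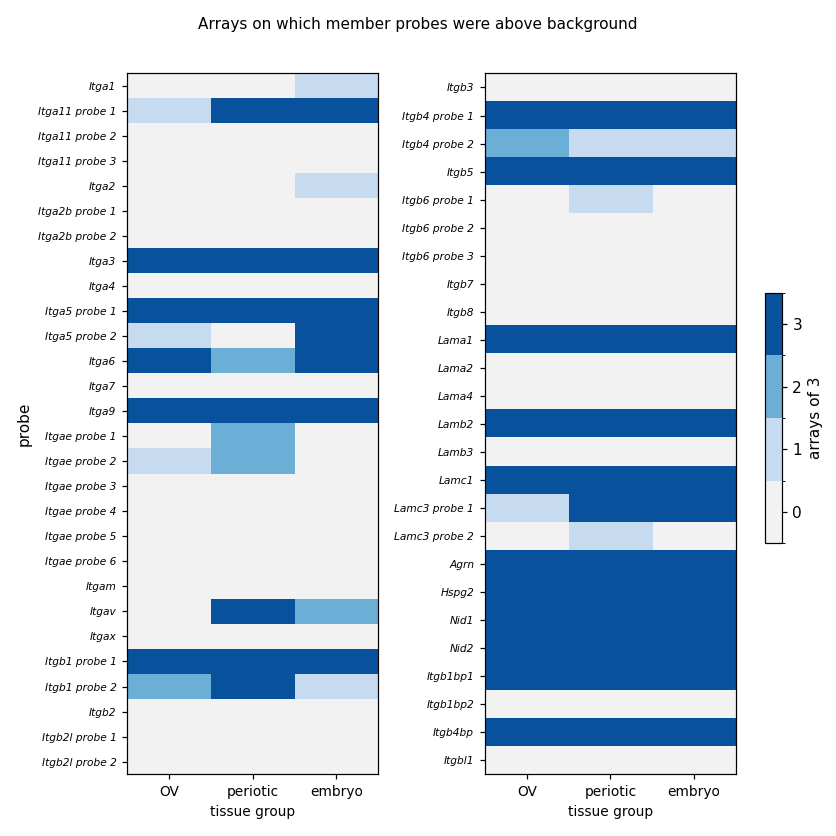
Number of arrays, of 3 in each tissue group, on which integrin, laminin and basement membrane probes were above background (detection p under 0.01, embryo standing for embryo-minus-otic). Of the 53 probes drawn, 25 were above background on no array.

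Between OV and periotic tissue, 6 of the 56 probes (10.7%) were called higher in OV, where 5.07% of all probes were, and 3 (5.36%) were called lower, where 5.15% of all probes were. Those higher were *Itga3*, *Itga6*, *Itga9*, *Itgb4*, *Hspg2* and *Agrn*, and those lower were *Itga11*, *Lamc3* and *Nid2*. Between OV and embryo-minus-otic, 4 (7.14%) were called higher against 5.89% of all probes, namely *Itgb4*, *Lamb2*, *Hspg2* and *Agrn*. The 5 called lower (8.93%, against 5.51% of all probes) were *Itga5*, *Itga11*, *Itgb5*, *Lamc3* and *Nid2*. Between periotic tissue and embryo-minus-otic, 2 (3.57%, against 2.86%) were called higher in periotic tissue, *Lamb2* and *Lamc3*, and 4 (7.14%, against 2.95%) were called lower, *Itga3*, *Itga5*, *Itga9* and *Itgb5*.

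The median log2 difference over the 56 probes was -0.02 for OV against periotic tissue (-3.71e-05 over all probes), -0.02 for OV against embryo-minus-otic (0.00 over all probes) and -0.04 for periotic tissue against embryo-minus-otic (0.01 over all probes). Calls ran in both directions in each comparison. Each pair of comparisons shares 1 group of arrays, so their values are set side by side and not counted as separate evidence. In all 24 pairs of a probe and a comparison that were called, the arrays of the groups did not overlap. With so few arrays in a group, a call itself favours such separation, and the share among all probes is not given here. Some uncalled pairs, such as *Lama1* between OV and periotic tissue, did not overlap either. The lack of overlap is thus not counted as evidence beyond the call.

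**Figure D2:**
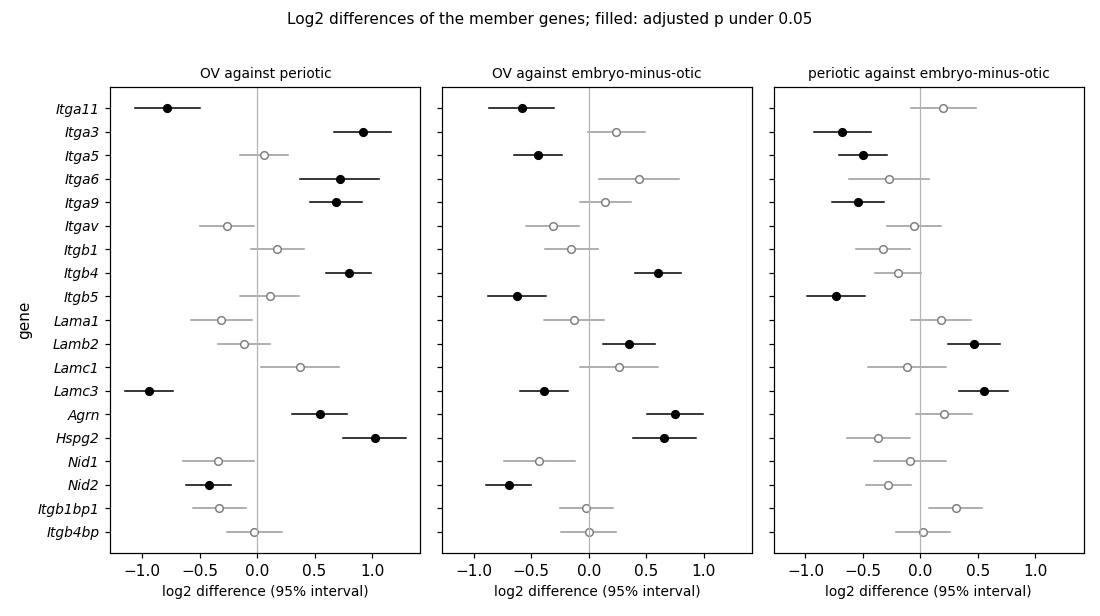
Log2 difference with its 95% confidence interval for the brightest probe of each measured integrin, laminin and basement membrane gene in each of the 3 tissue comparisons, with called differences (*q* under 0.05) filled. The difference for *Hspg2* between OV and periotic tissue, 1.02, is the largest upward one drawn, and that for *Lamc3*, -0.94, the largest downward one.

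Among the alpha chains, the laminin receptor subunits *Itga3* and *Itga6* and the epithelial and lymphatic subunit *Itga9* were each called higher in OV than in the periotic tissue around it. For *Itga3*, on chromosome 11 in the array's annotation, log2 intensity was 8.01, 8.01 and 8.15 on the OV arrays, 7.15, 7.00 and 7.26 on the periotic arrays, and 8.08, 7.79 and 7.58 on the embryo-minus-otic arrays. All 3 periotic arrays lay below the other 6. OV was 1.89-fold higher than periotic tissue (log2 difference 0.92, SE 0.117, *q* = 4.63e-05), and periotic tissue was 1.60-fold lower than embryo-minus-otic (-0.68, *q* = 0.00169). OV and embryo-minus-otic differed by 0.24 (95% interval -0.01 to 0.49, *q* = 0.261), which did not pass.

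*Itga9*, on chromosome 9, is a chain of the receptor for tenascin C and osteopontin. It measured 7.55, 7.20 and 7.46 on the OV arrays, 6.66, 6.66 and 6.82 on the periotic arrays, and 7.40, 7.17 and 7.21 on the embryo-minus-otic arrays. As with *Itga3*, the periotic arrays were the lowest 3. The difference was 0.69 (1.61-fold, SE 0.105, *q* = 0.000262) for OV against periotic tissue and -0.54 (*q* = 0.00421) for periotic tissue against embryo-minus-otic, and the latter did not pass under median normalization (*q* = 0.0814). OV lay 0.14 above embryo-minus-otic with an interval of -0.08 to 0.37 (*q* = 0.512).

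*Itga6* encodes the chain that pairs with beta 4 in hemidesmosomes and with beta 1 elsewhere. Its values were 7.24, 6.87 and 7.18 on the OV arrays, 6.60, 6.12 and 6.42 on the periotic arrays, where 2 of 3 arrays were above background, and 6.84, 6.88 and 6.24 on the embryo-minus-otic arrays. OV was 1.64-fold higher than periotic tissue (0.72, SE 0.163, *q* = 0.00802). This call was lost without periotic replicate 2 (*q* = 0.0512) and with the neqc background correction (*q* = 0.0539). Against embryo-minus-otic, whose arrays spread widely, the OV difference was 0.44 (0.09 to 0.79, *q* = 0.109).

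The fibronectin receptor chain *Itga5*, on chromosome 15, set the rest of the embryo apart from both otic-region tissues. Its brighter probe measured 6.88, 6.83 and 6.73 on the OV arrays, 6.91, 6.78 and 6.58 on the periotic arrays, and 7.30, 7.18 and 7.30 on the embryo-minus-otic arrays. All 3 embryo-minus-otic arrays were above the other 6. OV was 1.36-fold lower than embryo-minus-otic (-0.44, SE 0.0969, *q* = 0.006) and periotic tissue 1.42-fold lower (-0.50, *q* = 0.00434), while OV and periotic tissue differed by 0.06 (-0.15 to 0.27, *q* = 0.853). A second, dimmer *Itga5* probe had differences of the same sign that did not pass (-0.18, *q* = 0.27, for OV against embryo-minus-otic). Under median normalization neither call of the brighter probe passed (*q* = 0.093 and 0.0897).

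*Itga11*, a collagen receptor chain of mesenchymal cells on chromosome 9, ran the other way from *Itga3*. It was 6.12, 6.42 and 6.15 on the OV arrays, where 1 of 3 arrays was above background, 6.70, 7.26 and 7.08 on the periotic arrays, and 6.69, 6.98 and 6.77 on the embryo-minus-otic arrays. The OV arrays were the lowest 3. OV was 1.72-fold lower than periotic tissue (-0.78, SE 0.133, *q* = 0.000756) and 1.5-fold lower than embryo-minus-otic (-0.58, *q* = 0.00814), the latter not passing under median normalization (*q* = 0.11). *Itgav*, the alpha V chain on chromosome 2, was above background on no OV array, on 3 periotic arrays and on 2 of embryo-minus-otic. Its OV values, 5.94, 6.10 and 6.03, are thus bounds only, and neither OV difference passed (*q* = 0.187 against periotic tissue and 0.0842 against embryo-minus-otic). With the replicate number as a block, the latter difference of -0.32 passed (*q* = 0.0489).

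**Figure D3:**
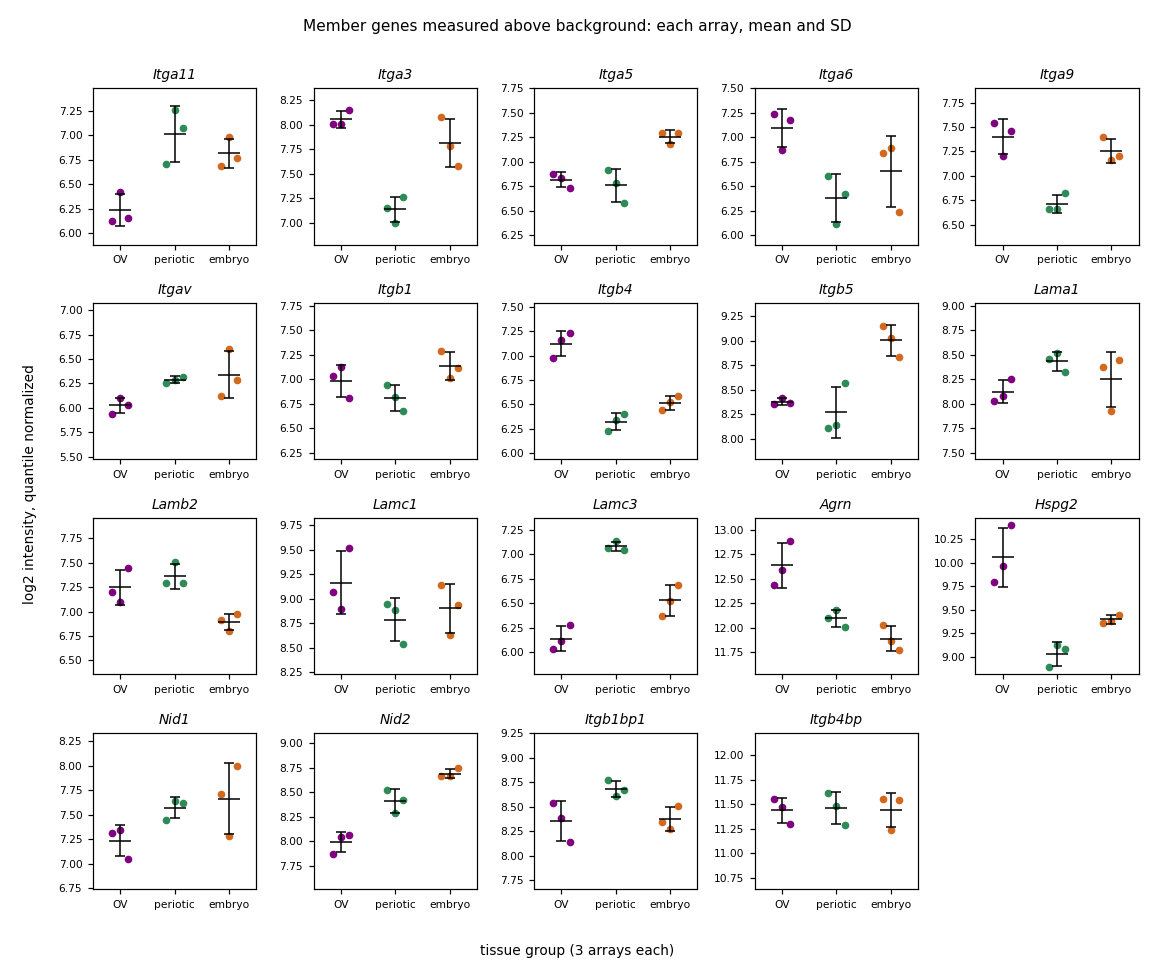
Log2 normalized intensity of the brightest probe of each measured gene on each of the 9 arrays, with the mean and SD of each tissue group of 3 (embryo stands for embryo-minus-otic). The periotic arrays are lowest for *Itga3* and *Itga9*, the OV arrays are lowest for *Itga11*, *Lamc3* and *Nid2*, and the OV arrays are highest for *Itgb4*, *Hspg2* and *Agrn*.

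Of the beta chains, *Itgb4* was higher in OV and *Itgb5* was higher in the rest of the embryo, and the common partner *Itgb1* passed in no comparison. *Itgb4*, on chromosome 11, encodes the hemidesmosome chain that pairs with alpha 6 alone. Its brighter probe measured 6.98, 7.16 and 7.23 on the OV arrays, 6.23, 6.34 and 6.40 on the periotic arrays, and 6.44, 6.52 and 6.58 on the embryo-minus-otic arrays, so that every OV array was above every other. OV was 1.74-fold higher than periotic tissue (0.80, SE 0.0928, *q* = 1.8e-05) and 1.52-fold higher than embryo-minus-otic (0.60, *q* = 0.000297). A second *Itgb4* probe, above background on 2 OV arrays, was 0.33 and 0.26 higher in OV without passing (*q* = 0.111 and 0.226).

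*Itgb5* pairs with alpha V in a vitronectin receptor. It was 8.36, 8.42 and 8.36 on the OV arrays, 8.11, 8.14 and 8.56 on the periotic arrays, and 9.15, 9.03 and 8.84 on the embryo-minus-otic arrays. The embryo-minus-otic arrays were the highest 3. OV was 1.54-fold lower (-0.62, SE 0.12, *q* = 0.00211) and periotic tissue 1.66-fold lower (-0.73, *q* = 0.000994) than embryo-minus-otic, and OV differed from periotic tissue by 0.11 (*q* = 0.738). With median normalization the *q*-values were 0.184 and 0.16.

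*Itgb1*, on chromosome 8, is the chain shared by the laminin, collagen and fibronectin receptors. It measured 7.03, 7.12 and 6.81 on the OV arrays, 6.94, 6.82 and 6.67 on the periotic arrays, and 7.29, 7.01 and 7.11 on the embryo-minus-otic arrays, with overlap between OV and each of the others. The differences were 0.18 (-0.06 to 0.41, *q* = 0.456) for OV against periotic tissue, -0.15 (*q* = 0.505) for OV against embryo-minus-otic and -0.33 (*q* = 0.109) between the others. A second *Itgb1* probe had the opposite sign in each comparison and also passed in none.

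Promoter windows of 4 of these integrin genes held the E-box CAGGTG, the letters bound by Snail and Zeb class repressors of epithelial genes. They are shown because *Itga3* and *Itga9* shared a pattern across the tissues while *Itga11* and *Itgb5* had others. Each window runs from 250 bases before to 50 after a RefSeq gene start on GRCm38.p6, 5′ to 3′ on the gene's strand, and capitals mark CAGGTG or, on the other strand, CACCTG.
Itga3, chr11:95076665-95076964, minus strand: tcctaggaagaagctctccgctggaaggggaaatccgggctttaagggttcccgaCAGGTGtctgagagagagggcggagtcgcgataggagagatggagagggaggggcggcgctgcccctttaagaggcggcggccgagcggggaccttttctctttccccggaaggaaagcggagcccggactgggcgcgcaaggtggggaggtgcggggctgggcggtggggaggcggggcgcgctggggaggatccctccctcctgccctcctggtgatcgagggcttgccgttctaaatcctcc
Itga9, chr9:118711442-118711741, plus strand: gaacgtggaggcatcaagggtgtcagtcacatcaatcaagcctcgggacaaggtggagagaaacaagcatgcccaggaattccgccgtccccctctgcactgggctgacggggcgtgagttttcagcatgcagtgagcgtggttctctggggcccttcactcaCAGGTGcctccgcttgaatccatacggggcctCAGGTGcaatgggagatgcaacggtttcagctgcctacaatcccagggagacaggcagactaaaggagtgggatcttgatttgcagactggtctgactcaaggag
Itga11, chr9:62677605-62677904, plus strand: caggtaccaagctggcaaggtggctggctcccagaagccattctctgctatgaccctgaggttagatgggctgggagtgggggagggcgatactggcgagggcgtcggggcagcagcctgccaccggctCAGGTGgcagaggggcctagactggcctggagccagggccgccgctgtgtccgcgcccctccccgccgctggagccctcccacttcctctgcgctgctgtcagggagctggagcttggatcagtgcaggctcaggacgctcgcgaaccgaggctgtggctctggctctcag
Itgb5, chr16:33829415-33829714, plus strand: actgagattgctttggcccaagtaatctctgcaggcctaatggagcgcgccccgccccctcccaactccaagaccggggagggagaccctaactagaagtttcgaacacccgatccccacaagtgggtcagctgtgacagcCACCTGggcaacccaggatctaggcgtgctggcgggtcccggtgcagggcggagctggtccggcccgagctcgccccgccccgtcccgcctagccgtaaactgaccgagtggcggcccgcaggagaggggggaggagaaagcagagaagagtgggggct

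The first base of the motif lay 195 bases before the start of *Itga3*, 87 and 55 before that of *Itga9*, 121 before that of *Itga11* and 109 before that of *Itgb5*. RefSeq windows matched 12 of the 19 measured symbols, with 14 windows, and 4 of these windows (28.6%) held the motif on either strand, against 20.2% of all 32851 promoter windows. Only windows with the motif are printed. Another *Itga3* window, from a different gene start, did not hold the motif. The genes that held it were thus higher in OV (*Itga3*, *Itga9*) and lower in OV (*Itga11*, *Itgb5*) in one comparison or another. A match of letters is a description and not a binding site.

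Of the laminin chains that could be measured, *Lamc3* and *Lamb2* were called in 1 or more comparisons and *Lama1* and *Lamc1* in none. *Lamc3*, the gamma 3 chain on chromosome 2, was 6.03, 6.11 and 6.28 on the OV arrays, with 1 of 3 arrays above background, 7.06, 7.13 and 7.05 on the periotic arrays, and 6.37, 6.53 and 6.69 on the embryo-minus-otic arrays. The 3 groups did not overlap, and periotic tissue was the highest. OV was 1.92-fold lower than periotic tissue (-0.94, SE 0.0997, *q* = 6.29e-06), and periotic tissue was 1.47-fold higher than embryo-minus-otic (0.55, *q* = 0.00243). The smaller difference between OV and embryo-minus-otic (-0.39, *q* = 0.0174) did not pass without OV replicate 1 (*q* = 0.087), without OV replicate 2 (*q* = 0.066) or without embryo-minus-otic replicate 3 (*q* = 0.0816). It also did not pass under median normalization (*q* = 0.0694).

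*Lamb2*, the beta 2 chain on chromosome 9, was 7.20, 7.09 and 7.45 on the OV arrays, 7.29, 7.51 and 7.29 on the periotic arrays, and 6.91, 6.80 and 6.97 on the embryo-minus-otic arrays, which were the lowest 3. Periotic tissue was 1.38-fold higher than embryo-minus-otic (0.47, *q* = 0.0132), a call lost without periotic replicate 2 (*q* = 0.082). The OV difference from embryo-minus-otic, 0.35 (SE 0.105, *q* = 0.0414), was close to the threshold. It did not pass in 11 of 17 alternatives, among them no normalization (*q* = 0.705), neqc (*q* = 0.0505) and leaving out any one of 6 arrays (highest *q* = 0.204, without OV replicate 3). Between OV and periotic tissue it differed by -0.12 (*q* = 0.669).

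The alpha 1 and gamma 1 chains of the early embryonic laminin passed in no comparison. *Lama1*, on chromosome 17, was 8.03, 8.08 and 8.26 on the OV arrays, 8.46, 8.52 and 8.33 on the periotic arrays, and 8.38, 7.93 and 8.45 on the embryo-minus-otic arrays. Its OV arrays were all below the periotic ones, but the difference of -0.31 (-0.57 to -0.05) had *q* = 0.156. *Lamc1*, on chromosome 1, was 9.07, 8.90 and 9.52 on the OV arrays, 8.94, 8.88 and 8.54 on the periotic arrays, and 9.14, 8.64 and 8.94 on the embryo-minus-otic arrays, and OV overlapped both. Its differences were 0.38 (*q* = 0.195), 0.26 (*q* = 0.406) and -0.12 (*q* = 0.824).

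The beta 1 laminin chain carries the older symbol *Lamb1-1* on the array, which the naming rule did not take, and it is given here because it is the usual partner of those chains. It was 6.94, 6.95 and 6.90 on the OV arrays, 6.41, 6.30 and 6.56 on the periotic arrays, and 7.33, 6.95 and 6.78 on the embryo-minus-otic arrays. OV was 1.42-fold higher than periotic tissue (0.50, *q* = 0.0122), and periotic tissue was 1.51-fold lower than embryo-minus-otic (-0.60, *q* = 0.00617).

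The proteins that link the laminin and collagen networks split into proteoglycans that were higher in OV and nidogens that were lower or did not pass. *Hspg2*, which encodes perlecan, was 9.80, 9.97 and 10.40 on the OV arrays, 8.89, 9.12 and 9.08 on the periotic arrays, and 9.36, 9.38 and 9.45 on the embryo-minus-otic arrays. Every OV array was above all others. OV was 2.03-fold higher than periotic tissue (1.02, SE 0.128, *q* = 3.68e-05) and 1.58-fold higher than embryo-minus-otic (0.66, *q* = 0.00234), and the other groups differed by -0.36 (*q* = 0.133).

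*Agrn* encodes agrin, which is best known for clustering receptors at the nerve-muscle synapse and also binds laminin in many basement membranes. It was 12.44, 12.59 and 12.89 on the OV arrays, 12.10, 12.18 and 12.01 on the periotic arrays, and 12.03, 11.87 and 11.77 on the embryo-minus-otic arrays. The OV arrays were again the highest 3. OV was 1.46-fold higher than periotic tissue (0.54, SE 0.113, *q* = 0.00423) and 1.68-fold higher than embryo-minus-otic (0.75, *q* = 0.000261).

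*Nid2*, on chromosome 14, was 7.87, 8.05 and 8.06 on the OV arrays, 8.53, 8.29 and 8.43 on the periotic arrays, and 8.67, 8.66 and 8.74 on the embryo-minus-otic arrays, with no overlap between any 2 groups. OV was 1.34-fold lower than periotic tissue (-0.42, SE 0.092, *q* = 0.00611) and 1.62-fold lower than embryo-minus-otic (-0.70, *q* = 6.47e-05). The smaller of these did not pass under median normalization (*q* = 0.0858). *Nid1*, on chromosome 13, measured 7.31, 7.34 and 7.05 on the OV arrays, 7.45, 7.64 and 7.62 on the periotic arrays, and 7.71, 7.28 and 8.00 on the embryo-minus-otic arrays. Its OV differences were of the same sign and did not pass (-0.34, *q* = 0.203, and -0.43, *q* = 0.0749).

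Symbols that only resemble those of integrins were called in no comparison. *Itgb1bp1*, an adaptor that binds the beta 1 tail, was 8.54, 8.38 and 8.14 on the OV arrays, 8.77, 8.61 and 8.67 on the periotic arrays, and 8.34, 8.28 and 8.51 on the embryo-minus-otic arrays, and no difference passed (lowest *q* = 0.071, for OV against periotic tissue). *Itgb4bp* is an older name of a translation initiation factor gene. It ran from 11.24 to 11.61 over the 9 arrays, and its differences were -0.02, 0.00 and 0.02 (*q* = 0.961, 0.996 and 0.962). *Itgb1bp2* and *Itgbl1* were above background on no array.

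The 35 remaining probes had no group with all 3 arrays above background, and none was called (lowest *q* = 0.111, differences from -0.30 to 0.33). The leukocyte chains *Itgam*, *Itgax*, *Itgb2*, *Itgb2l* and *Itgb7*, the platelet chains *Itga2b* and *Itgb3*, and *Itga4*, *Itga7*, *Itgb8*, *Lama2*, *Lama4* and *Lamb3* were above background on no array with any probe. *Itga1* and *Itga2*, chains of collagen receptors, passed on 1 embryo-minus-otic array each. The epithelial chain *Itgb6* passed on 1 periotic array by 1 of 3 probes, and *Itgae* passed on up to 1 OV and 2 periotic arrays. Further probes of measured genes were also dim, with *Itga11* having 2 more on no array and *Lamc3* 1 more on 1 periotic array. A probe below background bounds a level and does not show that a gene was silent.

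Signals of marker lists for epithelial and other cell types also differed between the groups. The epithelial list (14 probes of 11 genes on the array, such as *Cdh1* and *Krt8*) had 12 probes called higher in OV than in periotic tissue and 13 higher than in embryo-minus-otic, and its summed intensity was 12300 to 13100 in OV, 1330 to 1720 in periotic tissue and 2420 to 3260 in embryo-minus-otic. Some of its genes, such as *Cldn6*, *Prss8* and *Marveld3*, are among those the study ranked highest for OV on these same arrays. Its counts are thus not an independent measure of epithelium. Beside *Itgb4*, *Hspg2* and *Agrn*, this list was higher in OV than in both other groups. *Itga3*, *Itga6* and *Itga9* were called higher in OV than in periotic tissue but not than in embryo-minus-otic, where the list was higher too. The epithelial list was also lower in periotic tissue than in embryo-minus-otic, by 5 of 14 probes, beside *Itga3* and *Itga9*. Its part in these results was not tested.

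The mesenchyme list (14 probes of 10 genes, including *Pdgfra* and *Col1a1*) was summed at 1860 to 2090 in OV, 2090 to 2460 in periotic tissue and 3780 to 4280 in embryo-minus-otic, and 3, 12 and 11 of its probes were called lower in OV than periotic tissue, in OV than embryo-minus-otic and in periotic tissue than embryo-minus-otic. Of its genes, *Postn* was above background on no array. The endothelial list (10 probes of 8 genes) was summed at 1280 to 1490, 1870 to 2060 and 2030 to 2380, with 5 and 6 probes called lower in OV than in periotic tissue and embryo-minus-otic. Both lists thus had probes called lower in OV in each comparison where *Itga11* and *Nid2* were lower. The patterns were not the same. Between periotic tissue and embryo-minus-otic, where 11 mesenchyme probes were lower, *Itga11* differed by 0.20 (*q* = 0.543) and *Nid2* by -0.28 (*q* = 0.106). The mesenchyme list had probes called lower in each comparison where *Itga5* and *Itgb5* were lower. Their part in these differences was not tested.

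The neural tube list (11 probes of 10 genes) was summed highest in periotic tissue, at 4580 to 5600, beside 2680 to 3220 in OV and 2780 to 3000 in embryo-minus-otic, and *Lamc3* was likewise highest in periotic tissue. Of its probes, 5 were called lower in OV than in periotic tissue and 4 were called higher in periotic tissue than in embryo-minus-otic. For OV against embryo-minus-otic, 4 were called lower and 1 higher. Only 5 of the 11 probes were above background on all arrays of a group, so its sums also hold background signal. Of its genes, *Sox1*, *Pax6* and *Olig2* were above background on no array, and its part in the *Lamc3* difference was not tested. The macrophage and leukocyte list was summed at 1250 to 1330, 1660 to 1720 and 1420 to 1510, with 4 of 15 probes called lower in OV than in periotic tissue and *Ptprc* and *Fcer1g* on no array. The megakaryocyte list was summed at 645 to 659, 763 to 918 and 841 to 852, with 2 of 10 probes called lower in OV than in periotic tissue, 3 lower than in embryo-minus-otic and *Gp1ba* on no array. Only 5 of the 15 macrophage and leukocyte probes and 2 of the 10 megakaryocyte probes were above background on all arrays of a group. The sums of these lists thus hold much background signal.

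Erythroid markers were summed at 6460 to 16700 in OV, 28800 to 35500 in periotic tissue and 41700 to 46900 in embryo-minus-otic, with *Gata1* on no array. Of their 9 probes, 6 were called lower in OV than in periotic tissue, 7 lower in OV than in embryo-minus-otic and 2 lower in periotic tissue than in embryo-minus-otic. *Itga11*, *Lamc3* and *Nid2* were lower in OV in the same comparisons. The muscle and heart list had 6 of 10 probes above background on all arrays of a group, so its sums also hold background signal. These sums were 582 to 833 in OV, 566 to 606 in periotic tissue and 5160 to 5960 in embryo-minus-otic, with *Myod1* on no array. Of the 10 probes, 7 were called lower in OV, and 7 in periotic tissue, than in embryo-minus-otic. Among the integrins, *Itga5* and *Itgb5* were likewise lower in both of those tissues than in the rest of the embryo. The part of blood and muscle in all these differences was not tested.

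Around the receptors, proteins that couple integrins to the cytoskeleton or stand beside them in the membrane were counted from a list of 26 genes with 61 probes. For OV against periotic tissue, 8 of these probes (7 genes, 13.1%) were called higher, against 5.07% of all probes, and 1 (1.64%) lower, against 5.15%. For OV against embryo-minus-otic, 6 (4 genes, 9.84%) were higher, against 5.89%, and 2 (3.28%) lower, against 5.51%. Periotic tissue against embryo-minus-otic had 0 higher, against 2.86%, and 2 (3.28%) lower, against 2.95%. The median log2 differences of the list were 0.01, 0.01 and 0.00. *Cd9*, a tetraspanin that associates with integrins, was 9.25 ± 0.28 in OV, 7.50 ± 0.21 in periotic tissue and 7.50 ± 0.047 in embryo-minus-otic (SD, n = 3 each), or 3.36-fold higher in OV than in the periotic tissue (*q* = 1.31e-07, limma).

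Other genes of that list were picked after their values were seen. *Fermt1*, the kindlin of epithelia that activates integrins, was 1.61 higher in OV than in periotic tissue (*q* = 6.94e-07) and 1.22 higher than in embryo-minus-otic (*q* = 1.6e-05) on the log2 scale. Its relative *Fermt2* differed by 0.06 and -0.17 (*q* = 0.808 and 0.279). *Cav1*, which encodes caveolin, had a log2 difference of -0.78 for OV against periotic tissue (*q* = 0.000224). Core adhesion genes such as *Ptk2*, the focal adhesion kinase (0.07, *q* = 0.819), and *Vcl*, vinculin (0.03, *q* = 0.959), did not pass between OV and periotic tissue.

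Other basement membrane components, 28 genes with 46 probes, had 8 probes (6 genes, 17.4%) called higher in OV than in periotic tissue, against 5.07% of all probes, and 5 (4 genes, 10.9%) lower, against 5.15%. Against embryo-minus-otic, 7 (7 genes, 15.2%) were higher in OV, where 5.89% of all probes were, and 5 (4 genes, 10.9%) lower, where 5.51% were. Between the others 0 were higher, against 2.86%, and 2 (4.35%) lower, against 2.95%. The list medians were 0.04, 0.03 and -0.06 on the log2 scale. *Sparc*, a collagen-binding matrix protein, had both probes lower in OV than in periotic tissue (-1.06, *q* = 6.85e-05, and -1.04, *q* = 2.36e-05). *Lum*, a collagen-associated proteoglycan that the mesenchyme list also holds, had a log2 difference of -1.41 for OV against embryo-minus-otic (*q* = 3.33e-06).

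The main collagen IV chains, named after their values were seen because perlecan and nidogens join laminin to that network, were higher in OV. *Col4a1* was 11.16 ± 0.19 in OV, 10.26 ± 0.092 in periotic tissue and 10.30 ± 0.35 in embryo-minus-otic (SD, n = 3 each). *Col4a2* was 10.44 ± 0.24, 9.34 ± 0.057 and 9.32 ± 0.14. OV was 1.86-fold higher than periotic tissue for *Col4a1* (*q* = 0.000476) and 2.14-fold higher for *Col4a2* (*q* = 5.44e-06). *Bcam*, a laminin receptor that is not an integrin, was 1.84-fold higher in OV than in the periotic tissue (*q* = 7.15e-05) and 1.45-fold higher than in embryo-minus-otic (*q* = 0.00598).

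**Figure D4:**
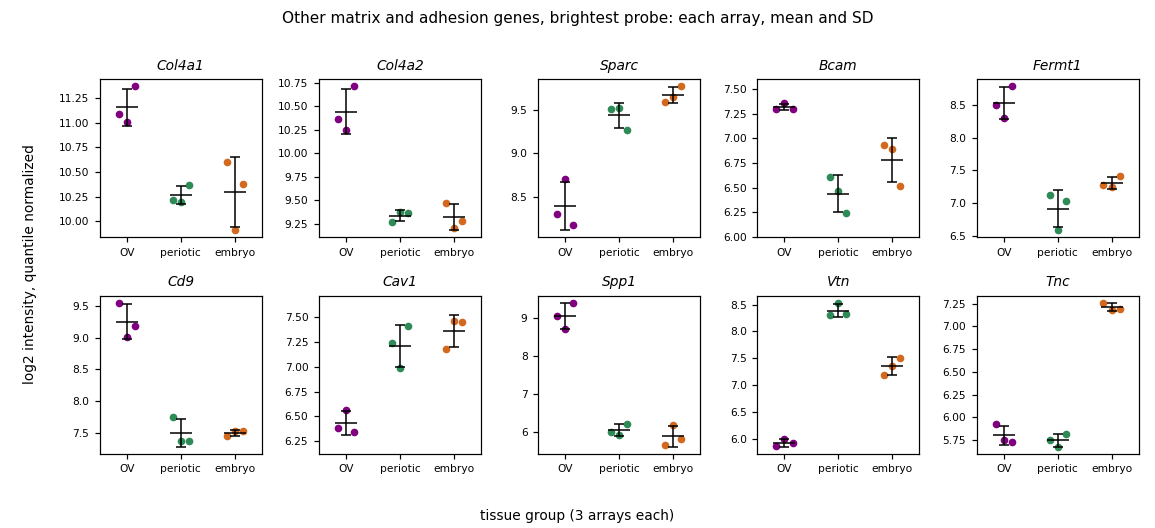
Log2 normalized intensity on each of the 9 arrays, with the mean and SD of each tissue group, for genes of the adhesion, basement membrane and ligand lists. *Cd9*, *Fermt1*, *Col4a1* and *Col4a2* are highest on the OV arrays, and *Vtn* is highest on the periotic arrays.

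Integrin ligands outside the basement membrane, 32 genes with 48 probes, had 8 probes (6 genes, 16.7%) higher in OV than in periotic tissue, against 5.07% of all probes, and 3 (6.25%) lower, against 5.15%. In OV against embryo-minus-otic, 8 (6 genes, 16.7%) were higher, against 5.89%, and 8 (7 genes, 16.7%) lower, against 5.51%. Between periotic tissue and embryo-minus-otic, 1 (2.08%) was higher, against 2.86%, and 8 (6 genes, 16.7%) were lower, against 2.95%. Their median log2 differences were 0.06, -0.05 and -0.065. *Spp1*, osteopontin, a ligand of alpha 9 and alpha V receptors, was 9.05 ± 0.34 in OV and was above background on 1 periotic and on no embryo-minus-otic array. Its log2 difference from periotic tissue, where 2 of the 3 arrays lay below background, was 2.99 (*q* = 2.14e-09), and it was at least 7.12-fold higher than in embryo-minus-otic (*q* = 2.06e-09). *Cdh1*, E-cadherin, the partner of the alpha E chain, was 3.32-fold higher in OV than in the periotic tissue (*q* = 2.52e-08).

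*Adam23*, a membrane protein that binds alpha V beta 3, was 1.83 higher in OV than in embryo-minus-otic (*q* = 2.73e-09) with the probe named *AW046396* on the array. *Vtn*, which encodes vitronectin, the ligand of alpha V beta 5, was above background on no OV array, 8.39 ± 0.13 in periotic tissue and 7.36 ± 0.16 in embryo-minus-otic. OV was at least 4.55-fold lower than periotic tissue (*q* = 1.43e-10) and at least 2.23-fold lower than embryo-minus-otic (*q* = 7.08e-08), and periotic tissue was 2.04-fold higher than embryo-minus-otic (*q* = 7.22e-06). A bound of this kind takes the lowest signal that counted as above background for the dim group.

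*Tnc*, tenascin C, another ligand of alpha 9, was above background in embryo-minus-otic alone with 2 probes. The brighter of them was at least 2.01-fold lower in OV (*q* = 1.64e-08) and at least 2.04-fold lower in periotic tissue (*q* = 2.46e-08), and the other was at least 1.56-fold lower in periotic tissue (*q* = 9.6e-06). *Tgfb2*, a growth factor of the family that alpha V integrins free from its latent form, had a log2 difference of -0.78 for periotic tissue against embryo-minus-otic (*q* = 0.000414).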

How the data were processed

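RNA from pools of E10.5 mouse tissue was amplified, labelled and hybridised to 1-colour Illumina mouse BeadChips, and arrays were grouped by the tissue named in their labels. Deposited values are GenomeStudio average signals, an intensity per probe and array that the authors did not normalize between arrays. Whether a background had been subtracted, and the slide of each array, are not given in the sources used here. The deposited detection p-values compare each signal with negative control probes.

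After flooring at 1, which changed 0 values, signals were put on the log2 scale and their quantiles were equalized across the 9 arrays. The 25697 probes entered 1 model of the 3 groups with limma 3.58.1 (lmFit and eBayes) in R 4.3.3, and p-values were adjusted over all probes by Benjamini and Hochberg. Probes of a gene were not averaged. A group with no array above background (detection p under 0.01) was given a bound, set by the lowest signal above background on each of its arrays.

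The members and the marker and pathway lists were chosen with earlier results of these data known. The text names each member with a probe above background on all 3 arrays of a group, its brightest probe first, and from the pathway lists the 3 called probes with the largest difference in each direction of each comparison. Genes named outside this rule are said to be so.

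On simulated data, 200 of 25697 probes were changed by 1 log2 unit. Of these, 94.5% were recovered for OV against periotic tissue, 90.5% for OV against embryo-minus-otic and 95% for periotic tissue against embryo-minus-otic. False calls numbered 5, 12 and 7. Among called member differences, only that of *Hspg2* for OV against periotic tissue (1.02) reached 1 log2 unit. The smallest was 0.35, for *Lamb2* in OV against embryo-minus-otic. The recovered shares thus do not measure the power for smaller differences or for dim probes. Alternatives covered the normalization (median, none, neqc with an offset of 16), a detection filter, a detection threshold of 0.05, a fit of only the groups compared, a replicate block, a prior with an intensity trend, array weights and leaving out each array. With 3 arrays a group, their number limits the precision. Promoter sequences were those of RefSeq on GRCm38.p6, matched by symbol for 25 of the 39 members. A few items covered by these rules are counted but not reported by name here.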

Additional observations from a re-analysis of the deposited data

How the results depend on the processing

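None of the 24 called pairs of a probe and a comparison changed direction under any alternative. All 24 kept their call with the detection filter and with a replicate block, 22 with neqc, 16 with median normalization and 14 with no normalization. In a fit of only the groups compared, 5 member probes were lower in OV than in periotic tissue in place of 3, with *Lama1* (*q* = 0.0487) and *Nid1* (*q* = 0.0449) added. In that fit *Hspg2* also passed as lower in periotic tissue than in embryo-minus-otic (*q* = 0.0447). With median normalization, 1 was lower in OV than in embryo-minus-otic in place of 5, and 1 was lower in periotic tissue than in embryo-minus-otic in place of 4. With no normalization, 2 were higher and 3 lower in OV than in embryo-minus-otic, and 0 were higher and 2 lower in periotic tissue than in embryo-minus-otic. The cause was not tested. Among all called probes, the share that was higher was 51.6% for OV against embryo-minus-otic and 49.3% for periotic tissue against it, and with median normalization 68.7% and 72%. Leaving out 1 array gave 5 to 6 higher and 3 to 4 lower for OV against periotic tissue, 3 to 4 higher and 4 to 7 lower for OV against embryo-minus-otic, and 1 to 2 higher and 4 to 5 lower for periotic tissue against embryo-minus-otic. Some calls were added. For OV against embryo-minus-otic, *Nid1* passed without embryo-minus-otic replicate 2 (*q* = 0.00249). Without embryo-minus-otic replicate 1, *Itgav* (*q* = 0.0177) and *Itga3* (*q* = 0.0432) did. For OV against periotic tissue, *Lama1* passed without embryo-minus-otic replicate 2 (*q* = 0.0406) and *Itgb1bp1* without OV replicate 1 (*q* = 0.0279). *Hspg2* passed for periotic tissue against embryo-minus-otic without OV replicate 3 (*q* = 0.0327).

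Calls held under all 17 alternatives for *Itga9*, *Itga11*, *Itgb4* and *Lamc3* in OV against periotic tissue, for *Itga3* in both of its called comparisons, for *Hspg2* in both OV comparisons, and for *Agrn* and *Nid2* in OV against embryo-minus-otic. With no normalization, 10 of the 24 calls did not pass. Among them were *Itgb4* for OV against embryo-minus-otic (*q* = 0.127), *Agrn* for OV against periotic tissue (*q* = 0.153) and *Lamc3* for periotic tissue against embryo-minus-otic (*q* = 0.237). The others were both calls of *Itga5*, both of *Lamb2*, *Itga9* for periotic tissue against embryo-minus-otic, *Lamc3* for OV against embryo-minus-otic and *Nid2* for OV against periotic tissue. Differences of dim probes depend on the background: with neqc, that of *Lamc3* for OV against periotic tissue was -1.63 in place of -0.94, and that of *Itgb4* 1.30 in place of 0.80. Replicate numbers are shared between groups, and no label ties a number to a litter. For this reason the samples were not taken as pairs. Deviations of same-numbered arrays correlated at 0.000743 to 0.232, and values near 0 do not show that the arrays were unpaired. Of 18 comparisons of an array with another group, 14 gave the highest correlation with its own number, 6 of 6 between OV and periotic tissue. The study took its tissues from 3 litters, so arrays of different groups may share a litter. The main test did not use such a pairing, and the replicate block was run as an alternative. The replicate block gave 6 higher and 3 lower for OV against periotic tissue, 4 higher and 6 lower for OV against embryo-minus-otic, where *Itgav* was added (*q* = 0.0489), and 2 higher and 4 lower for the others. At a detection p under 0.05, 20, 20 and 21 member probes passed on every array of the OV, periotic and embryo-minus-otic groups.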
